A study of Mus musculus with 6 samples.

Results

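The 10 genes described here are receptors, ligands and targets of the Notch pathway: the receptor genes Notch1, Notch2, Notch3 and Notch4, the ligand genes Jag1, Jag2, Dll1 and Dll4, and the target genes Hes1 and Hey1. They were chosen by symbol, as probe sets that the platform annotation gives exactly 1 gene symbol, with the brightest probe set kept where a symbol had several. All 10 were measured, among 22180 genes tested. Notch receptors are single-pass membrane proteins that are bound by Jagged or Delta-like ligands on a neighbouring cell, cut by ADAM proteases and then by gamma-secretase. The freed intracellular domain joins the DNA-binding protein RBPJ in the nucleus and switches on repressor genes of the Hes and Hey families. In the kidney the pathway is known for setting the proximal fate of nephron segments, for the choice between principal and intercalated cells in the collecting duct, and for its roles in vessel walls.

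RNA of 6 mouse kidney samples, taken at 4 weeks of age with no treatment, was measured on 1 Affymetrix whole-transcript array each. The labels call 3 of them Cre-negative and 3 Cre-positive. The labels name a conditional knockout line of Pals1/Mpp5, given as C56Bl/6 in background, and transgenic Six2-Cre mice of mixed background, and every sample is labelled as mixed background. The Six2 sequence drives Cre recombinase in progenitors of nephron epithelia, so vessels, interstitium and collecting duct lie outside its lineage. Pals1, the product of Mpp5, is a scaffold protein of the Crumbs polarity complex, and the series addresses what its reduced dose in nephrons does to the kidney. How many conditional alleles each sample carried, and whether the Cre-negative samples carried any, is stated in none of the sources used here. Values are log2 levels after RMA, and differences are Cre-positive minus Cre-negative on the log2 scale ± SE from limma with n = 3 per group. As the labels do not say that each sample is a separate mouse, p-values measure the spread between these samples only, which may be technical in part.

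Array medians lay between 5.55 and 5.64. Mpp5 was lower in the Cre-positive arrays (-0.61 ± 0.09, limma adjusted p = 0.00232). The proximal tubule markers were bright in all arrays (list means 10.46 to 11.98), as the label kidney has it. Xist was high in Cre-negative replicates 1 (10.76) and 2 (10.70) and lay at 4.00 to 4.29 in the other 4 arrays, and Uty, Kdm5d and Eif2s3y on the Y chromosome ran the other way, so the groups were not balanced for sex. Differences from a fit that also holds sex (called the sex term) are therefore given for the members and pathway genes where they end a call, and for some others; they equal the difference from Cre-negative replicate 3, the only Cre-negative array with Y-linked transcripts. Cre-negative replicate 2 carried adrenal transcripts (list mean 9.74; others 4.28 to 4.36) and Cre-positive replicate 2 skeletal muscle transcripts (list mean 6.51; others 4.78 to 5.04).

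Of the 10 members 2 rose in Cre-positive kidneys, Notch3 and Notch1, and 0 fell, at limma adjusted p under 0.05. That is 20% of the members, where 21.8% of all tested genes passed, so the count itself is near the background. At an unadjusted p under 0.05 in the same limma fit, 5 members were higher and 0 lower, where 16.5% of all genes were higher and 17% lower. By direction, 10.7% of all genes passed the adjusted test as higher and 11.1% as lower. The Cre-positive arrays did not overlap the Cre-negative ones for 7 members, where 38.5% of all tested genes did not overlap. Of the 7, 6 were higher (18.6% of all genes) and 1 was lower (19.9% of all genes). The median difference of the members was 0.25, against -0.01 over all genes. By role, the 4 receptors had a median of 0.32, the 4 ligands of 0.14 and the 2 targets of 0.12.

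**Figure D1:**
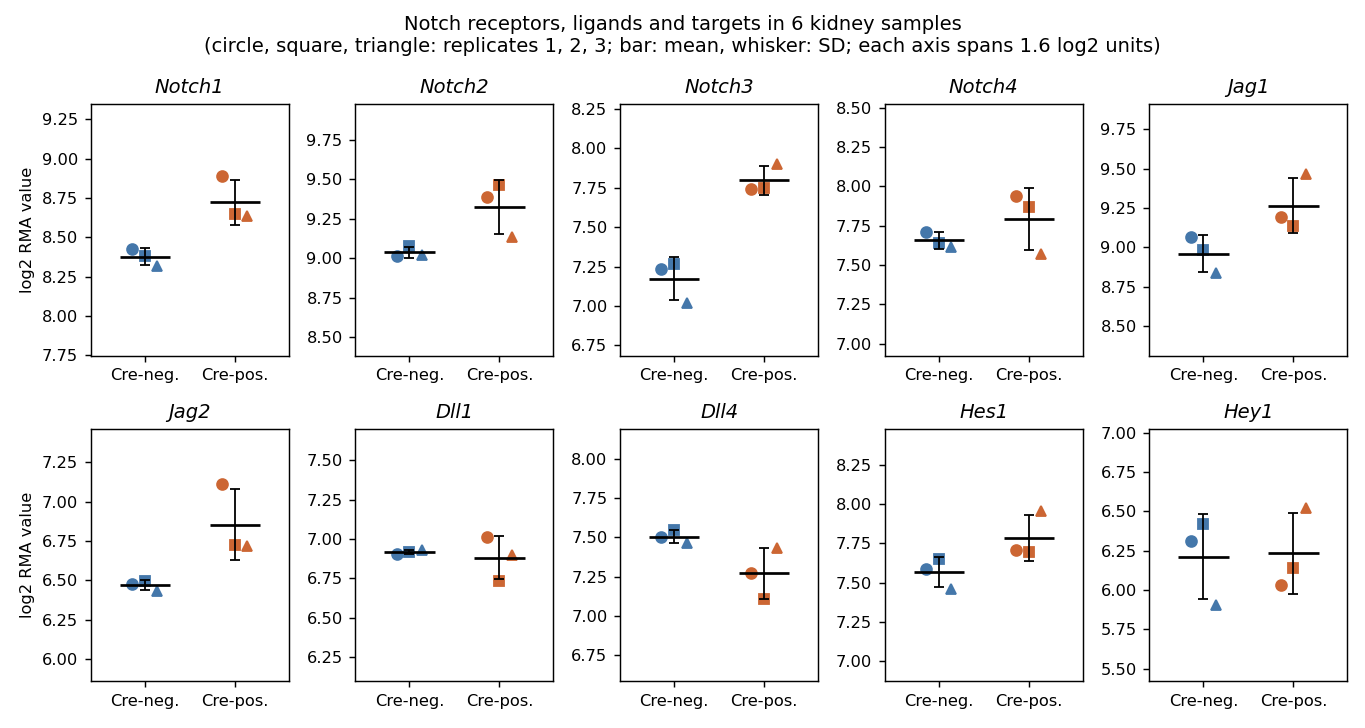
Level of each of the 10 members (log2 RMA value, vertical axis) in the 3 Cre-negative (blue) and 3 Cre-positive (orange) arrays, with the mean (bar) and SD (whisker). The groups stand apart for Notch1, Notch2, Notch3, Jag1, Jag2, Hes1 and Dll4 and overlap for Notch4, Dll1 and Hey1.

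Promoter letters are shown for Notch1 and Notch3, the members that passed the test, to set them beside the binding letters of the pathway's own DNA-binding proteins. The sequences are the 250 bases before the annotated start, from RefSeq (GRCm38.p6), 5′ to 3′ on the gene's strand. Capitals mark CACNAG on either strand, the N-box that HES proteins bind.
Notch1 (chr2:26503823-26504072, minus strand): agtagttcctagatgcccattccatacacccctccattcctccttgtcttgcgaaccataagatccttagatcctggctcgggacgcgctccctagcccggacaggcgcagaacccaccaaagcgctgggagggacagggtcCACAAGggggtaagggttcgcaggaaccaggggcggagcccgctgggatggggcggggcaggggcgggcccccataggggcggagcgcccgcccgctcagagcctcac
Notch3 (chr17:32166891-32167140, minus strand): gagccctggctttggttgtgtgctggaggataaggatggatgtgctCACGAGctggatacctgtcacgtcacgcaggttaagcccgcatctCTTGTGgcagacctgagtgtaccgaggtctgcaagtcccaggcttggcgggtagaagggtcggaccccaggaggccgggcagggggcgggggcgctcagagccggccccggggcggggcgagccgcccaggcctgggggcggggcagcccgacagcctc

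Windows of 300 bases, reaching 50 bases past the start, were listed for 8 of the 10 members, not for Hes1 and Hey1, and both strands were searched. TGGGAA, the core letters bound by RBPJ, occurred in 0 of the 8 members' windows, where 25.6% of all 32851 windows hold it; the longer form GTGGGAA, which contains it, is in 6.38% of all windows. The E-box CACGTG, bound by HES and HEY proteins, was likewise in 0 of 8 (7.15% of all windows). CACNAG, whose matches cannot share letters with a CACGTG, was in 5 of the 8 members' windows, where 42.5% of all windows hold it. Counted from the start, with the base before it as -1, the Notch3 window holds it at -204 on the gene's strand and at -159 on the other strand. The Notch1 window holds it at -108, and again on both strands across the start itself (first bases -3 and -1), where the printed stretch ends. These matches describe letters only.

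Notch3 encodes the receptor best known from pericytes and vascular smooth muscle. It stood at 7.23, 7.27 and 7.02 in Cre-negative and at 7.74, 7.75 and 7.90 in Cre-positive arrays. The Cre-positive arrays were close to each other and all lay above the Cre-negative ones, of which replicate 3 was the lowest. The difference was 0.62 ± 0.10, or 1.54-fold (95% interval 0.39 to 0.86 on the log2 scale, limma adjusted p = 0.00405). By the exact permutation test over arrays (two-sided) p was 0.10, the smallest value possible with 3 against 3 arrays, as it was for each member whose groups did not overlap. With the sex term the Notch3 difference was 0.78 (limma adjusted p = 0.0157), and without both replicates 2, the arrays with transcripts of other tissues, it was 0.70 (limma adjusted p = 0.0394).

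Notch1, a receptor of nephron progenitors and endothelium, stood at 8.43, 8.38 and 8.32 in Cre-negative and at 8.89, 8.65 and 8.64 in Cre-positive arrays. Cre-positive replicate 1 was the highest, and the groups did not overlap. The difference was 0.35 ± 0.10, or 1.27-fold (limma adjusted p = 0.0401). This call was close to the threshold. It was lost with the sex term (0.40, limma adjusted p = 0.153), with the replicate number as a block (0.35, limma adjusted p = 0.0586), and with each array centred on its median (0.29, limma adjusted p = 0.0905). The call was also lost without Cre-negative replicate 1, 2 or 3 or Cre-positive replicate 1 or 2 (limma adjusted p = 0.0658 to 0.121). Without both replicates 2 it was lost too (0.39, limma adjusted p = 0.163). In arrays with Y-linked transcripts alone the Notch1 difference was 0.40.

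Notch2 and Notch4 did not pass. Notch2, the receptor most needed for proximal nephron segments, was at 9.01, 9.07 and 9.02 in Cre-negative and 9.39, 9.46 and 9.13 in Cre-positive arrays. All Cre-positive values were the higher ones, with replicate 3 closest to the Cre-negative arrays (0.29 ± 0.10, 95% interval 0.05 to 0.53, limma adjusted p = 0.0883). Without Cre-positive replicate 3 the Notch2 difference was 0.39 and passed (limma adjusted p = 0.0192). Notch2 also passed with array weights (0.34, limma adjusted p = 0.0304) and without genes below the median level (0.29, limma adjusted p = 0.0482). The latter fit called 43.5% of the genes kept. In all, Notch2 passed in 3 of the 16 alternatives. It did not pass with the sex term (0.31, limma adjusted p = 0.306) or without both replicates 2 (0.24, limma adjusted p = 0.353). Notch4, the receptor largely restricted to endothelium, was at 7.71, 7.64 and 7.61 in Cre-negative and 7.94, 7.87 and 7.57 in Cre-positive arrays. Cre-positive replicate 3 was the lowest of all 6, so the groups overlapped (0.14 ± 0.11, 95% interval -0.12 to 0.40, limma adjusted p = 0.459).

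**Figure D2:**
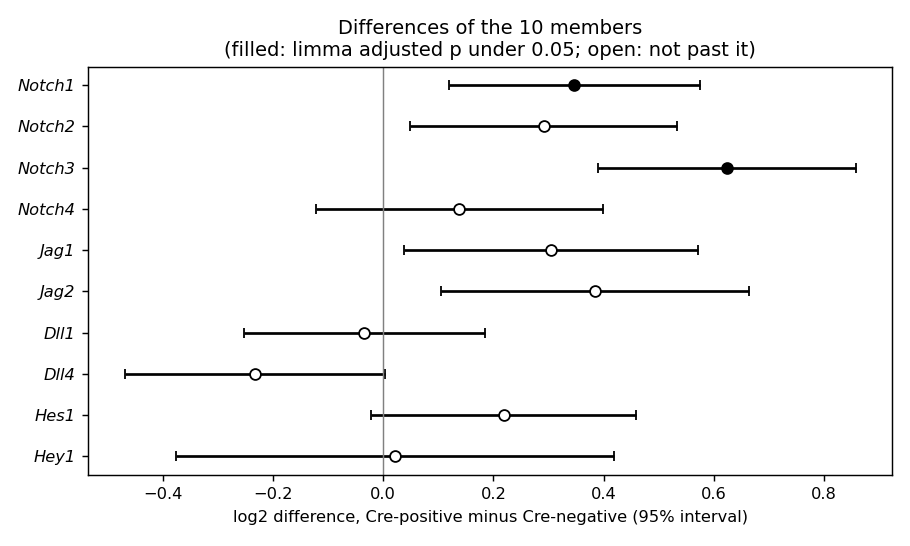
Log2 difference of each member between Cre-positive and Cre-negative arrays (horizontal axis) with its 95% interval from limma, n = 3 per group; filled points passed an adjusted p of 0.05. Notch3 at 0.62 and Notch1 at 0.35 are filled, and the intervals of Notch4, Dll1, Dll4, Hes1 and Hey1 include 0.

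The Jagged ligand genes were higher in every Cre-positive array but did not pass. Jag1, whose product is made by nephron precursors, endothelium and smooth muscle, was at 9.07, 8.98 and 8.83 in Cre-negative and 9.19, 9.14 and 9.47 in Cre-positive arrays. Jag1 was highest in Cre-positive replicate 3 (0.31 ± 0.12, 95% interval 0.04 to 0.57, limma adjusted p = 0.103). Jag2 was at 6.48, 6.49 and 6.43 in Cre-negative and 7.12, 6.73 and 6.72 in Cre-positive arrays. Its Cre-negative values lay close together, and Cre-positive replicate 1 stood above the other two (0.38 ± 0.12, or 1.31-fold, 95% interval 0.11 to 0.66, limma adjusted p = 0.0570). Jag2 passed without Cre-positive replicate 3 (0.45, limma adjusted p = 0.0479) and with array weights (0.35, limma adjusted p = 0.0453). It also passed when genes below the median level were left out (0.38, limma adjusted p = 0.0337). In all, Jag2 passed in 3 of the 16 alternatives. It did not pass with the sex term (0.42, limma adjusted p = 0.225) or without both replicates 2 (0.46, limma adjusted p = 0.159).

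The Delta-like ligand genes gave no difference past the threshold either. Dll1, the ligand of early nephron structures, was at 6.90, 6.92 and 6.93 in Cre-negative and 7.01, 6.74 and 6.90 in Cre-positive arrays. The groups overlapped (-0.03 ± 0.09, 95% interval -0.25 to 0.18, limma adjusted p = 0.850). Its dimmer probe set, not used here, gave -0.12. Dll4, the ligand of arterial and sprouting endothelium, was at 7.50, 7.55 and 7.46 in Cre-negative and 7.28, 7.11 and 7.43 in Cre-positive arrays. It was the only member whose Cre-positive values were all the lower ones, with replicate 3 just under the Cre-negative range (-0.23 ± 0.10, 95% interval -0.47 to 0.00, limma adjusted p = 0.155). A dimmer probe set that the annotation shares between Dll4 and Gm14207 gave 0.16, the opposite sign, and which transcript it read cannot be told apart.

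Ratios of a Jagged to a Delta-like gene within an array were compared next, for the 4 such pairs. The log2 ratio of Jag2 to Dll4 was -1.02, -1.05 and -1.03 in Cre-negative and -0.16, -0.38 and -0.71 in Cre-positive arrays. That of Jag1 to Dll4 was 1.56, 1.43 and 1.37 in Cre-negative and 1.92, 2.03 and 2.03 in Cre-positive arrays. The ratios rest on probe sets of different brightness, so only their change has a meaning, which was 0.62 for Jag2 over Dll4, 0.54 for Jag1 over Dll4, 0.42 for Jag2 over Dll1 and 0.34 for Jag1 over Dll1. Of all single genes 38.5% did not overlap between the groups, and the share over other gene pairs was not computed. For each of these 4 pairs the groups did not overlap. The exact permutation p was 0.10, the smallest possible (0.144 after Benjamini-Hochberg adjustment over all 13 pairs within a role). For the ratios over Dll4 this follows from the single genes: Jag1 and Jag2 were higher and Dll4 lower in every Cre-positive array. The 4 pairs share the same 4 genes, so they are not separate results. Within the families, Jag1 over Jag2 changed by -0.08 with overlap (exact permutation p = 0.80, 0.80 adjusted), and Dll1 over Dll4 by 0.20 without overlap (exact permutation p = 0.10, 0.144 adjusted). Among the receptors, Notch3 over Notch4 changed by 0.49, Notch2 over Notch3 by -0.33, Notch1 over Notch4 by 0.21 and Notch2 over Notch4 by 0.15. The groups overlapped for none of these (exact permutation p = 0.10, 0.144 adjusted), so lack of overlap was not particular to Jagged over Delta-like pairs. The ratio of Notch1 to Notch3 overlapped between the groups (change -0.28, exact permutation p = 0.20, 0.26 adjusted). That of Notch1 to Notch2 overlapped as well (change 0.06, exact permutation p = 0.80, 0.80 adjusted). No pair can pass 0.05 in this design.

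The target genes of the members did not pass. Hes1, a bHLH repressor that answers Notch in many tissues, was at 7.59, 7.65 and 7.46 in Cre-negative and 7.71, 7.69 and 7.95 in Cre-positive arrays. The groups did not overlap, but the gap between them was small beside their spread (0.22 ± 0.10, 95% interval -0.02 to 0.46, limma adjusted p = 0.188). Hey1, a related repressor of vessels and nephron, was at 6.31, 6.42 and 5.91 in Cre-negative and 6.03, 6.14 and 6.52 in Cre-positive arrays. The groups overlapped over most of their range (0.02 ± 0.17, 95% interval -0.38 to 0.42, limma adjusted p = 0.952). In both groups replicate 3 lay at an end of the range, the lowest Cre-negative and the highest Cre-positive value, and with the sex term the Hey1 difference was 0.33 (limma adjusted p = 0.397). The intervals leave room for a change of Hes1 or Hey1 of the size measured for Notch1.

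A wider list of 89 genes of the pathway was set beside the members, of which 83 were measured. Of these 23 rose and 1 fell, or 28.9% called against 21.8% of all genes; the median was 0.12. At an unadjusted p under 0.05 in the same fit, 31 were higher and 7 lower, where 16.5% of all genes were higher and 17% lower; 4 of the 7 were among the target and feedback genes. With each array centred on its median, which takes the median of all genes from -0.01 to -0.07, the split was 18 rises and 4 falls, while that over all genes went from 49% to 38.2% rises. With the sex term 9 rose and 1 fell, or 12% of 83, where 9.15% of all genes were called. All 10 of those calls were among the 24. Without both replicates 2 the counts were 7 and 0, or 8.43% of 83, near the 8.35% of all genes called in that setting. In the fit without covariates the called share was 25% of ligand-like genes, 44.4% of ligand uptake genes and 33.3% of receptor-modifying genes. It was 10% for receptor cleavage, 41.7% for trafficking and turnover, 30% for the nuclear complex and 20% for target and feedback genes. These shares stand beside 21.8% of all genes and rest on few genes each.

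**Figure D3:**
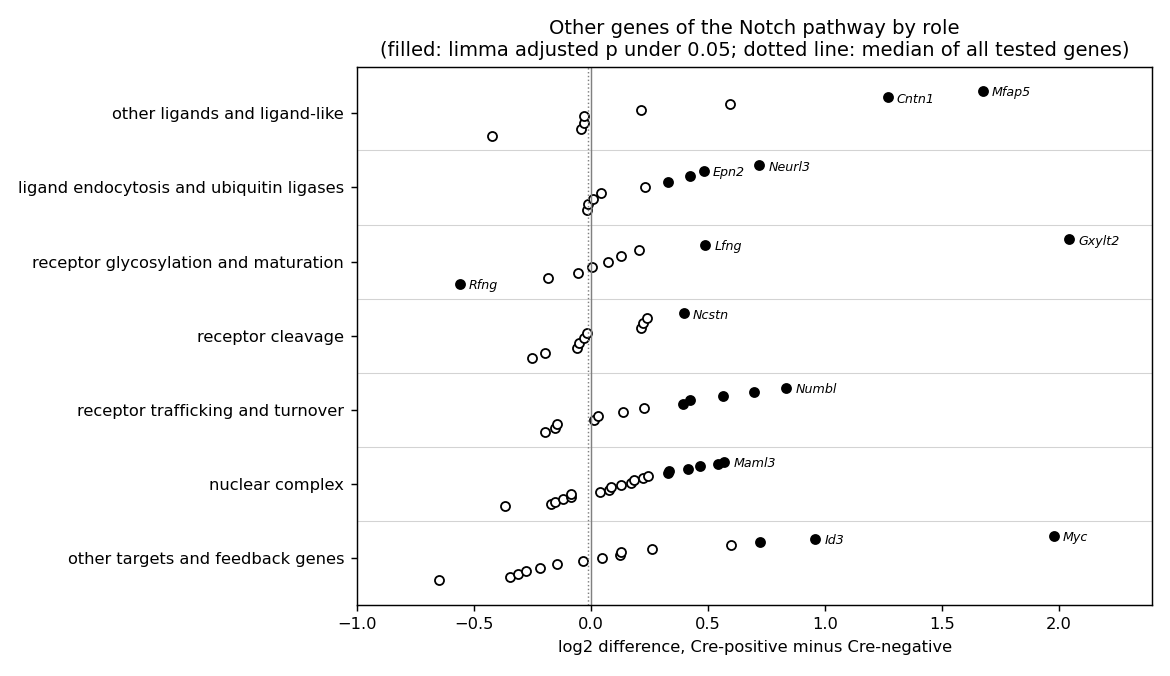
Log2 difference (horizontal axis) of 83 other genes of the Notch pathway, 1 point a gene, in 7 rows by role; filled points passed limma's adjusted p of 0.05. Filled points lie to the right of 0 in all 7 roles, and Rfng at -0.56 is the only filled point to the left.

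Ligand-like genes were 8, of which 2 rose and 0 fell. Mfap5, a microfibril protein that can bind Notch and Jagged proteins, was at 6.30, 6.59 and 6.45 in Cre-negative and 7.48, 8.08 and 8.80 in Cre-positive arrays (1.68 ± 0.29, limma adjusted p = 0.00537), and at 1.67 with the sex term (limma adjusted p = 0.0614). Cntn1, a contactin described as a Notch ligand, rose by 2.41-fold (1.27 ± 0.21, limma adjusted p = 0.00433). The related microfibril gene Mfap2 (0.59 ± 0.20) and the atypical ligand Dlk1 (-0.42 ± 0.20) did not pass. Of 9 genes that ubiquitinate or internalise ligands 4 rose and 0 fell: Epn2, an epsin of clathrin-mediated uptake (0.48 ± 0.09), Dnm2, a dynamin (0.33 ± 0.08), and the Neuralized ligases Neurl1b (0.42 ± 0.11) and Neurl3 (0.72 ± 0.19). All 4 calls were lost with the sex term (limma adjusted p = 0.0921 to 0.214). Mib1, the main ligase for Notch ligands in mammals, was at 0.04 ± 0.10 (95% interval -0.19 to 0.27, limma adjusted p = 0.825).

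Receptor-modifying genes moved both ways. Of 9 measured, 2 rose and 1 fell. Gxylt2, a xylosyltransferase that extends O-glucose on EGF repeats such as those of Notch, was at 7.14, 6.50 and 6.92 in Cre-negative and 8.96, 8.75 and 8.98 in Cre-positive arrays. It rose by 4.12-fold (2.04 ± 0.16, limma adjusted p = 0.000199), and passed in all 16 alternatives. The Fringe genes, whose products add a sugar that shifts receptors between Delta-like and Jagged ligands, differed in sign. Lfng was at 8.10, 8.23 and 7.98 in Cre-negative and 8.46, 8.40 and 8.90 in Cre-positive arrays (0.49 ± 0.15, limma adjusted p = 0.0471). Rfng was at 7.59, 7.74 and 7.82 in Cre-negative and 7.17, 7.25 and 7.05 in Cre-positive arrays (-0.56 ± 0.10, limma adjusted p = 0.00567). The groups did not overlap for either gene, and Rfng was the only fall among the 83. Mfng did not pass (0.21 ± 0.11, limma adjusted p = 0.238). With the sex term Rfng held (-0.66, limma adjusted p = 0.0329) and Lfng did not (0.61, limma adjusted p = 0.131).

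Of 10 genes of receptor cleavage 1 rose, Ncstn, the gamma-secretase subunit nicastrin (0.40 ± 0.09, limma adjusted p = 0.0136), and 0 fell. Ncstn was lost with the sex term (limma adjusted p = 0.125). The sheddase genes Adam10 (0.22 ± 0.10) and Adam17 (-0.20 ± 0.11) did not pass. Of 12 genes of trafficking and turnover 5 rose and 0 fell. They were Numbl, a relative of the Notch antagonist Numb (0.83 ± 0.13, limma adjusted p = 0.00335), the Deltex genes Dtx4 (0.70 ± 0.10) and Dtx3 (0.56 ± 0.12), and the ubiquitin ligase genes Nedd4 (0.42 ± 0.08) and Cbl (0.39 ± 0.08). With the sex term Numbl and Dtx4 held (limma adjusted p = 0.0349 and 0.0418), and Nedd4, Cbl and Dtx3 did not (limma adjusted p = 0.0650 to 0.145). Numb itself was at -0.15 ± 0.09 (limma adjusted p = 0.338).

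In the nuclear complex 6 of 20 genes rose and 0 fell. All 3 Mastermind coactivators, which bind the Notch intracellular domain on RBPJ, were among them: Maml3 (0.57 ± 0.11, limma adjusted p = 0.00844), Maml2 (0.42 ± 0.10, limma adjusted p = 0.0188) and Maml1 (0.33 ± 0.09, limma adjusted p = 0.0286). Of these Maml3 held with the sex term (0.69, limma adjusted p = 0.0413), and Maml2 and Maml1 did not (limma adjusted p = 0.0643 and 0.292). Among the genes of Groucho corepressors, partners of HES proteins, Tle3 (0.54 ± 0.08) and Tle1 (0.46 ± 0.13) rose, while Tle4 (-0.37 ± 0.13) and Tle2 (-0.09 ± 0.13) did not pass. Tle1 was lost when all of its probe sets were averaged (0.22, limma adjusted p = 0.136). The sixth was Snw1, a coregulator of RBPJ complexes (0.33 ± 0.08). With the sex term Tle1 held (limma adjusted p = 0.0445), and Tle3 and Snw1 did not (limma adjusted p = 0.0660 and 0.163). Rbpj was at 8.65, 8.65 and 8.62 in Cre-negative and 8.21, 8.43 and 9.02 in Cre-positive arrays, so the Cre-positive values lay on either side of the Cre-negative ones (-0.09 ± 0.19, limma adjusted p = 0.807).

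Among 15 other target and feedback genes 3 rose and 0 fell, or 20% called, where 21.8% of all genes were. The Hes and Hey relatives were not among the 3. Those that rose were Myc (1.98 ± 0.12, or 3.94-fold, limma adjusted p = 8.66e-05), Id3, an inhibitor of bHLH proteins (0.96 ± 0.19, limma adjusted p = 0.0102), and Bhlhe40 (0.72 ± 0.11, limma adjusted p = 0.00371). All 3 answer many other signals as well as Notch, and all 3 passed in each of the 16 alternatives. Hey2 (-0.34 ± 0.13, limma adjusted p = 0.110), Hes6 (-0.28 ± 0.10), Hes7 (0.26 ± 0.09), Heyl (0.05 ± 0.22), Hes5 (-0.03 ± 0.14) and the feedback inhibitor Nrarp (0.12 ± 0.11, limma adjusted p = 0.508) did not pass. The lowest value of the 83 genes, that of the cyclin gene Ccnd1 (-0.65 ± 0.21, limma adjusted p = 0.0646), and that of Efnb2, an arterial ephrin gene (-0.31 ± 0.10, limma adjusted p = 0.0697), did not pass either, and passed as lower in 3 and 5 of the 16 alternatives. With Hes1 and Hey1, the Hes, Hey and Nrarp genes named here thus held values on both sides of 0 and no called difference as reported. Among the 16 alternatives Hes6 passed as lower in 5, Hey2 as lower in 1 and Hes7 as higher in 1.

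Markers of vessel cells moved in the same arrays. In whole-kidney RNA, fewer cells of a type and less RNA per cell cannot be told apart. Of 11 pericyte and smooth muscle markers 4 rose and 1 fell (median 0.45), or 45.5% called, where 21.8% of all genes were. Tagln (1.29 ± 0.23), Acta2 (0.78 ± 0.17), Myh11 (0.54 ± 0.10) and Mcam (0.62 ± 0.15) rose, and Abcc9, a pericyte channel subunit, fell (-0.62 ± 0.12). The mean level of the list was 8.49 to 8.62 in Cre-negative and 8.62 to 9.17 in Cre-positive arrays. In Cre-positive replicate 1 this mean was within the Cre-negative range, and Notch3 stood at 7.74 there, above all Cre-negative values. The single markers were split in that array. Tagln (8.98), Acta2 (10.86), Myh11, Mcam, Rgs5 and Cspg4 also lay above all Cre-negative values. Abcc9 (7.14), Kcnj8 (6.64) and Des lay below all of them, and Pdgfrb and Cnn1 within their range. Tagln and Acta2 mark myofibroblasts as well. The part of these cells in the Notch3 difference was not tested.

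**Figure D4:**
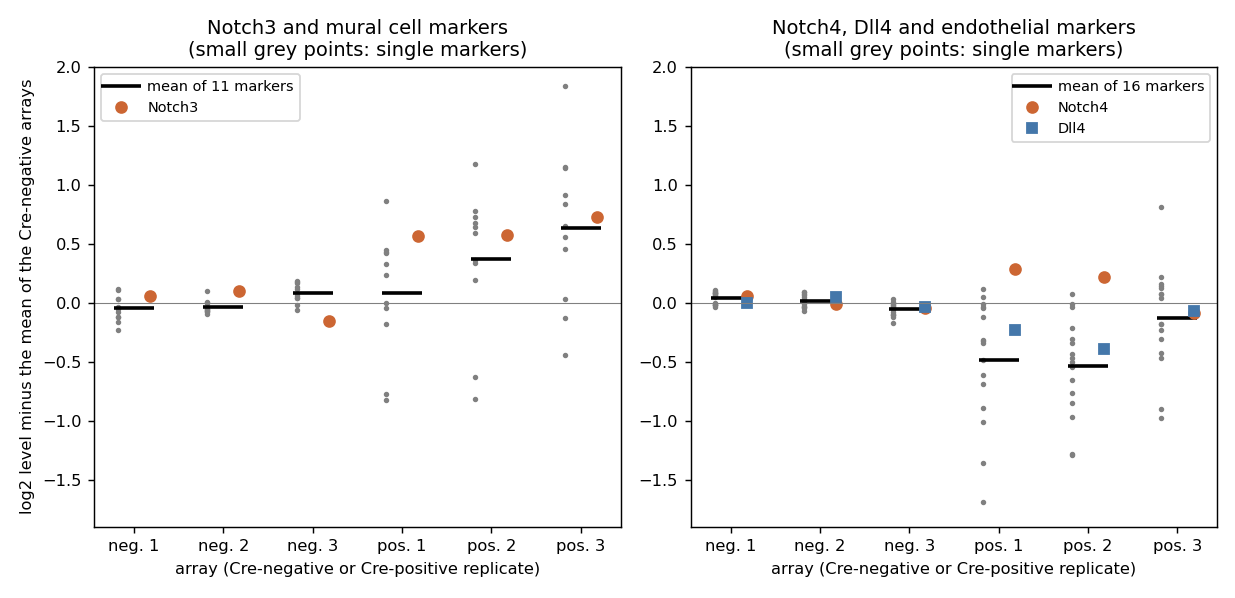
Level of Notch3 beside 11 mural cell markers (left) and of Notch4 and Dll4 beside 16 endothelial markers (right) in each array, as log2 level minus the mean of the 3 Cre-negative arrays; small points are single markers and black bars their mean. Notch3 lies above 0 in all 3 Cre-positive arrays, and the endothelial mean lies below 0 in all 3, nearest to it in replicate 3.

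Of 16 endothelial markers 6 fell and 0 rose (median -0.31), or 37.5% called, where 21.8% of all genes were. The falls included the VEGF receptor gene Kdr (-1.18 ± 0.13), the glomerular endothelial gene Ehd3 (-1.32 ± 0.17) and the angiopoietin receptor gene Tek (-0.74 ± 0.13), while Pecam1 (-0.09 ± 0.10) and Tie1 (-0.08 ± 0.09) did not pass. The mean of the list was 8.81 to 8.90 in Cre-negative and 8.32 to 8.73 in Cre-positive arrays, and highest of the Cre-positive arrays in replicate 3. Dll4 was likewise highest of the Cre-positive arrays in replicate 3, whereas Notch4 was lowest there. Of the tubular and immune lists, all 8 markers of injured tubule rose, 9 of 10 myeloid markers rose, and 9 of 10 proximal tubule and 5 of 6 podocyte markers fell. None of 6 adrenal and 8 skeletal muscle markers passed limma's test, nor did any (0) at an unadjusted p under 0.05. Adrenal Cyp11b1 was at 11.10 in Cre-negative replicate 2 and at 3.85 to 4.24 elsewhere. Transcripts of 1 array widen the spread, so the test cannot tell whether those arrays affect the comparison. The part of the cells of all these lists in the members' differences was not tested.

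**Figure D5:**
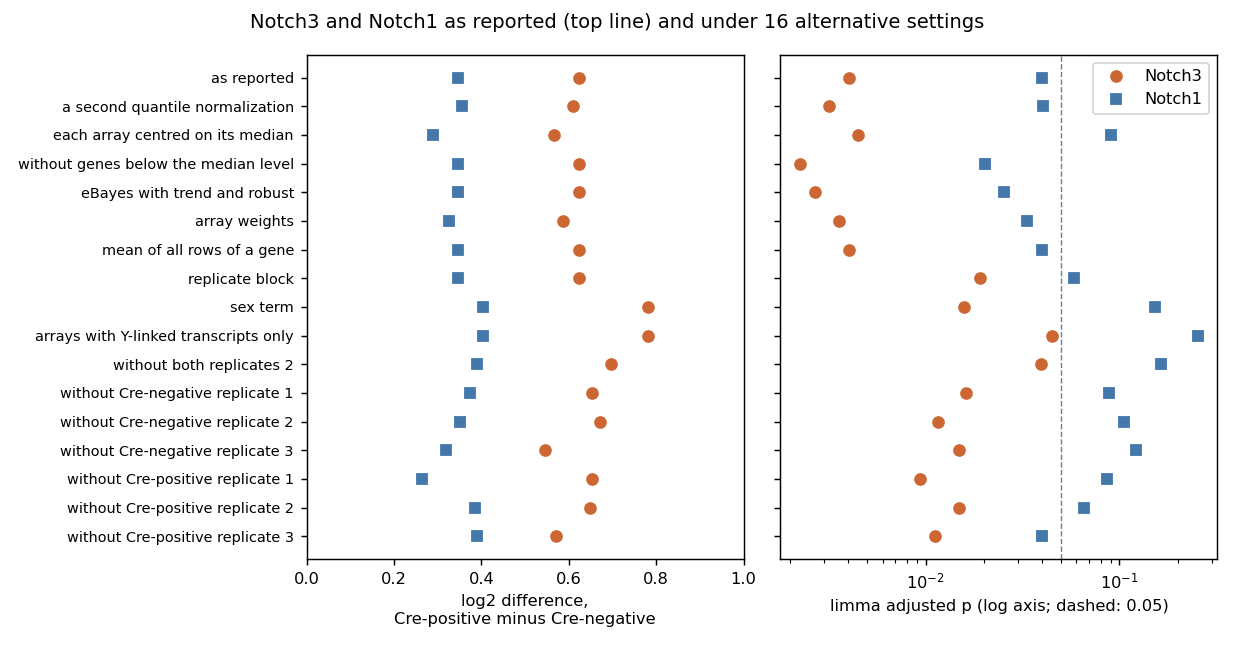
Log2 difference (left) and limma adjusted p (right, log axis) of Notch3 (circles) and Notch1 (squares) as reported (top line) and under 16 alternatives. Notch3 stayed between 0.55 and 0.78 and left of the dashed line at 0.05 throughout, and Notch1 lay left of it in 6 of the 16.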

How the data were processed

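Total RNA of 6 mouse kidney samples was labelled with biotin and hybridised to 1 single-colour Affymetrix array each. The authors deposited log2 values per probe set after RMA (background correction, quantile normalization, 1 summary value per probe set); per the submitters' processing notes the tools were RMA and Partek, with no version. Genome build and probe set annotation: not given in the sources used here. Of 41345 probe sets, 23521 carried exactly 1 symbol in GEO's platform annotation, and each of 22180 genes was represented by its probe set of highest mean. No filter on low values was applied. There were 0 columns of other samples.

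Cre-positive and Cre-negative arrays were compared by limma 3.58.1 (R 4.3.3), using lmFit and two-sided eBayes tests without covariates; p-values were adjusted by Benjamini and Hochberg's method over all 22180 genes, and 0.05 was the threshold. Single values were also compared by the exact two-sided permutation test over arrays. The fit was tested on simulated data. The genes named are the 10 members, in each pathway group up to 6 genes past the threshold by smallest p, up to 3 genes of a marker list, and Mpp5, Xist and Y-linked genes as checks; other genes are named after their values were seen. The members and gene lists were chosen with earlier results of these data known. Promoter letters came from a RefSeq table (GRCm38.p6). Same-numbered arrays did not deviate together (correlations of deviations 0.03, -0.04 and -0.01 for replicates 1, 2 and 3), so the numbers were not taken as pairs. The 16 alternatives were other normalizations, a filter, other variance models, the mean of all probe sets of a gene, a replicate block, a sex term, arrays with Y-linked transcripts alone and leaving out arrays. Python 3.11.15 (pandas 2.3.3, matplotlib 3.10.9) was used for tables and plots.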

Additional observations from a re-analysis of the deposited data

How the results depend on the processing

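Across the 16 alternatives the Notch3 difference kept its direction and its call (0.55 to 0.78). Of 159 comparisons of a member with an alternative, 143 kept their call or lack of it, 10 lost it, all for Notch1, 6 gained it, for Notch2 and Jag2, and 0 reversed. Members past the threshold as higher, 2 as reported, were 1 with median centring, the replicate block, the sex term, arrays with Y-linked transcripts alone and without both replicates 2, 4 with array weights and without genes below the median level, and 1 to 4 when each array was left out. Members called lower were 0 throughout. Of all genes, 25.2% were called with array weights and 22% without Cre-positive replicate 3, against 21.8% as reported. Without genes below the median level, 43.5% of 11090 genes were called, and Hey1 was not among the genes kept. All genes called, 4844 as reported, were 2030 with the sex term, 1101 with Y-linked arrays alone, where the lone Cre-negative array borrows the spread of the others, 1853 without both replicates 2 and 3141 to 4885 when each array was left out. Other pathway genes higher, 23 as reported, were 9, 5 and 7 in the first 3 of these settings and 14 to 23 with an array left out. Those lower, 1 as reported, were 3 with a second quantile normalization, 4 with median centring and without genes below the median level, 5 with array weights, 0 with Y-linked arrays alone and without both replicates 2, and 1 to 3 with an array left out. Fewer samples or a second factor can widen the SE, but leaving out an array also narrowed some. The SE of Notch2 was 0.08 without Cre-positive replicate 3, against 0.10 as reported. The cause of the changed counts was not tested. With the replicate block 3977 genes and 18 pathway genes as higher were called. RMA compresses differences of dim probe sets, and scanner files were not used here, so background correction was not varied.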

Other observations

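Among markers of the collecting duct, where Notch signalling is known to favour principal over intercalated cells, the called ones moved in opposite directions. Six2-Cre is not made in the collecting duct lineage. In whole-kidney RNA it cannot be told which cells the marker transcripts came from. Of 9 principal cell markers 4 rose and 0 fell, or 44.4% called, where 21.8% of all genes were. The 4 were Aqp2, Scnn1b, Scnn1g and Gata3, a transcription factor of the collecting duct. Aqp3 (0.45 ± 0.23) and Fxyd4 (0.37 ± 0.13) did not pass. Neither did Hsd11b2 (0.04 ± 0.11), Elf5 (0.04 ± 0.19) and Avpr2, which was lower (-0.25 ± 0.12). Gata3 was at 7.28, 7.56 and 7.32 in Cre-negative and 7.97, 7.76 and 7.66 in Cre-positive arrays (0.41 ± 0.12, limma adjusted p = 0.0420). Of 10 intercalated cell markers 5 fell and 0 rose, or 50% called. The 5 were Slc4a1, Slc26a4, Slc26a7, the proton pump subunit gene Atp6v1g3 (-0.46 ± 0.12, limma adjusted p = 0.0282) and the ammonium transporter gene Rhbg. Rhbg was at 10.10, 10.01 and 9.91 in Cre-negative and 9.16, 8.88 and 8.83 in Cre-positive arrays (-1.05 ± 0.11, limma adjusted p = 0.000682). Foxi1, the transcription factor that defines intercalated cells, did not pass (0.07 ± 0.13, 95% interval -0.24 to 0.39, limma adjusted p = 0.759). Rhcg (-0.33 ± 0.12), Atp6v0d2 (-0.35 ± 0.14), Atp6v1b1 (-0.29 ± 0.13) and Slc4a9 (-0.22 ± 0.13) were lower and did not pass either. Values with the sex term are not given for these markers. Whether these shifts relate to the Notch genes was not tested.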
